A study of Mus musculus with 20 samples.

Results

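Microglia are the resident macrophages of the brain, and 9 genes that mark them were followed through the hippocampus of mice infused with human small RNAs (sRNAs). The 9 were taken by name from the deposited table of 25190 genes, all 9 were present, and all passed the filter on low counts. They are Cx3cr1, P2ry12, Tmem119 and Csf1r, which are high in resting (homeostatic) microglia, Trem2, Tyrobp and Cd68, which rise when microglia engulf debris (activated), and Aif1 and Itgam, which other cells of the myeloid lineage carry as well (pan-myeloid). These classes are labels, and they do not mean that the homeostatic and activated genes are found in microglia alone. The 20 libraries came from 20 wild-type C57BL/6JOlaHsd male mice aged 4 months per the labels, 5 in each of 4 groups. All mice carried cannulae in the dorsal hippocampus and were infused on both sides, Vehicle mice with artificial cerebrospinal fluid, Control mice with hippocampal sRNAs of a pool of control individuals, and the mice of Pool 1 and Pool 2 with hippocampal sRNAs from separate pools of patients with schizophrenia. Tissue was taken 24 hours after the final behavioural test. The 5 mice of a group thus share 1 infused pool, so the pools differ by 1 preparation each, and no mouse without surgery was measured here. The labels name hippocampal tissue and the design text its CA1 field, and these are bulk samples in which fewer cells of a type and less RNA per cell cannot be told apart.

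In the healthy brain, microglia survey the tissue with motile processes. Their survival depends on the receptor CSF1R, neurons hold them at rest through the ligand of CX3CR1, and P2RY12 steers their processes towards ATP released at an injury. TREM2 is a surface receptor for lipids and apolipoproteins that signals through the adaptor TYROBP (DAP12), and this pathway is needed for the state that microglia take around plaques and damaged myelin, in which homeostatic genes such as P2ry12 and Tmem119 typically fall while Cd68, Apoe and Cst7 rise. The transcription factor PU.1, encoded by Spi1, controls much of the myeloid programme and binds DNA at purine-rich sites with the core GAGGAA.

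The 250 bases before the annotated start are shown for 3 of the 9 genes, because they were the ones that stood furthest apart in the results. Aif1 was the gene raised most in the library that stood out, P2ry12 the one that was not raised there, and Itgam the one lower in Pool 1 mice in some of the fits. Sequences are from RefSeq (GRCm38.p6) in the direction of transcription, and capitals mark GAGGAA or its reverse complement TTCCTC. Aif1 is read from chr17:35176053-35176302 on the minus strand, P2ry12 from chr3:59262986-59263235 on the minus strand and Itgam from chr7:128062390-128062639 on the plus strand. The starts used for these windows are not always those of the GENCODE gene spans given below. The Aif1 window overlaps its GENCODE span, which ends at 35176068. The P2ry12 window lies apart from its span, which ends at 59262871.
Aif1: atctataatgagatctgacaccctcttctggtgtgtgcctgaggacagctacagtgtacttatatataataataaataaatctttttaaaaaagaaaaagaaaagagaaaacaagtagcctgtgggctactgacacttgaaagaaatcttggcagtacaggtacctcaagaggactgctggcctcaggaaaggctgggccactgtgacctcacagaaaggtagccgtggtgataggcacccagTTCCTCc
P2ry12: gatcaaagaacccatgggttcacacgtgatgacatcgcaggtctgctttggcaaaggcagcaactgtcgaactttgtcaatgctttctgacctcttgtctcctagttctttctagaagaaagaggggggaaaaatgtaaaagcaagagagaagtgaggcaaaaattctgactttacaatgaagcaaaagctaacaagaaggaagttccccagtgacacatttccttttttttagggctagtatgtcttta
Itgam: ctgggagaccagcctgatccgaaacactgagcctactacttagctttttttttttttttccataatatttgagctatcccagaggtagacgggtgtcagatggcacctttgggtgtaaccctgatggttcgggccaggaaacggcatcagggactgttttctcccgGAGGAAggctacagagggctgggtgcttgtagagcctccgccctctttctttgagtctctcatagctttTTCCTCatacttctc
Promoters of 6 of the 9 genes matched by symbol, and 4 of the 6 (Trem2, Cd68, Aif1 and Itgam) held the hexamer on either strand, against 23.3% of the 32851 promoters of this length. Counted to the start used for each window, the match lay 7 bases before it in Aif1, 15 and 84 in Itgam, 40 in Trem2 and 225 in Cd68. The Aif1 match lies within the GENCODE span of the gene, as does the whole window of Cx3cr1. Cx3cr1 and P2ry12 had no match in this window. These matches are letters only, no binding was measured, and no link between matches and levels was tested. Cx3cr1, without a match, stood at 1.97 times the median of the other 19 libraries in the library that stood out.

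All 9 genes were measured well above the limit of detection. Totals of 20588280 to 25543939 counts per library put 3 counts at 0.117 to 0.146 CPM (counts scaled to library size with edgeR's TMM factors), whereas the lowest value of any of the 9 genes in any library was 3.78 CPM, for Aif1 in Control replicate 4. Per length of annotated exon (CPM per kilobase, FPKM), the mean level over the 20 libraries ran from Tyrobp at 27.6, Csf1r at 22.7, P2ry12 at 15.1, Cx3cr1 at 13.8 and Tmem119 at 11 to Cd68 at 8.15, Aif1 at 4.77, Trem2 at 3.54 and Itgam at 1.61. The SD over libraries was 13.1 for Tyrobp, 7.14 for Csf1r, 1.86 for P2ry12 and 3.15 for Cx3cr1. Without Pool 2 replicate 1 it was 7.09 for Tyrobp and 2.85 for Csf1r. The genes were measured in the same libraries, so these SDs do not decide the order of neighbours, which was not tested. The exon length of Trem2, 4946 bases over 4 transcripts, is long against the short protein that it encodes, which lowers its value on this scale. The defining markers of microglia were thus present in every library.

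Pool 2 replicate 1 stood apart from the other 19 libraries before any groups were compared. It was the highest of the 20 libraries in 8 of the 9 genes, whereas 11.5% of the 16644 genes whose normalized count averaged 10 or more were highest there. Its level was 1.97 times the median of the other 19 libraries for Cx3cr1, 2.22 times for Tmem119, 2.36 times for Csf1r, 2.59 times for Cd68, 3.02 times for Trem2, 3.17 times for Tyrobp, 2.02 times for Itgam and 5.21 times for Aif1. P2ry12 was the exception, at 1.14 times the median and 4th from the top, below Control replicate 5. Over all 16644 genes the median ratio was 1.01, and 4.27% of them reached a ratio of 2. Of the remaining 19 libraries, Pool 2 replicate 3 was the highest in 4 of the 9 genes and Vehicle replicate 5 in 3. Every comparison with Pool 2 is therefore given with and without Pool 2 replicate 1.

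**Figure D1:**
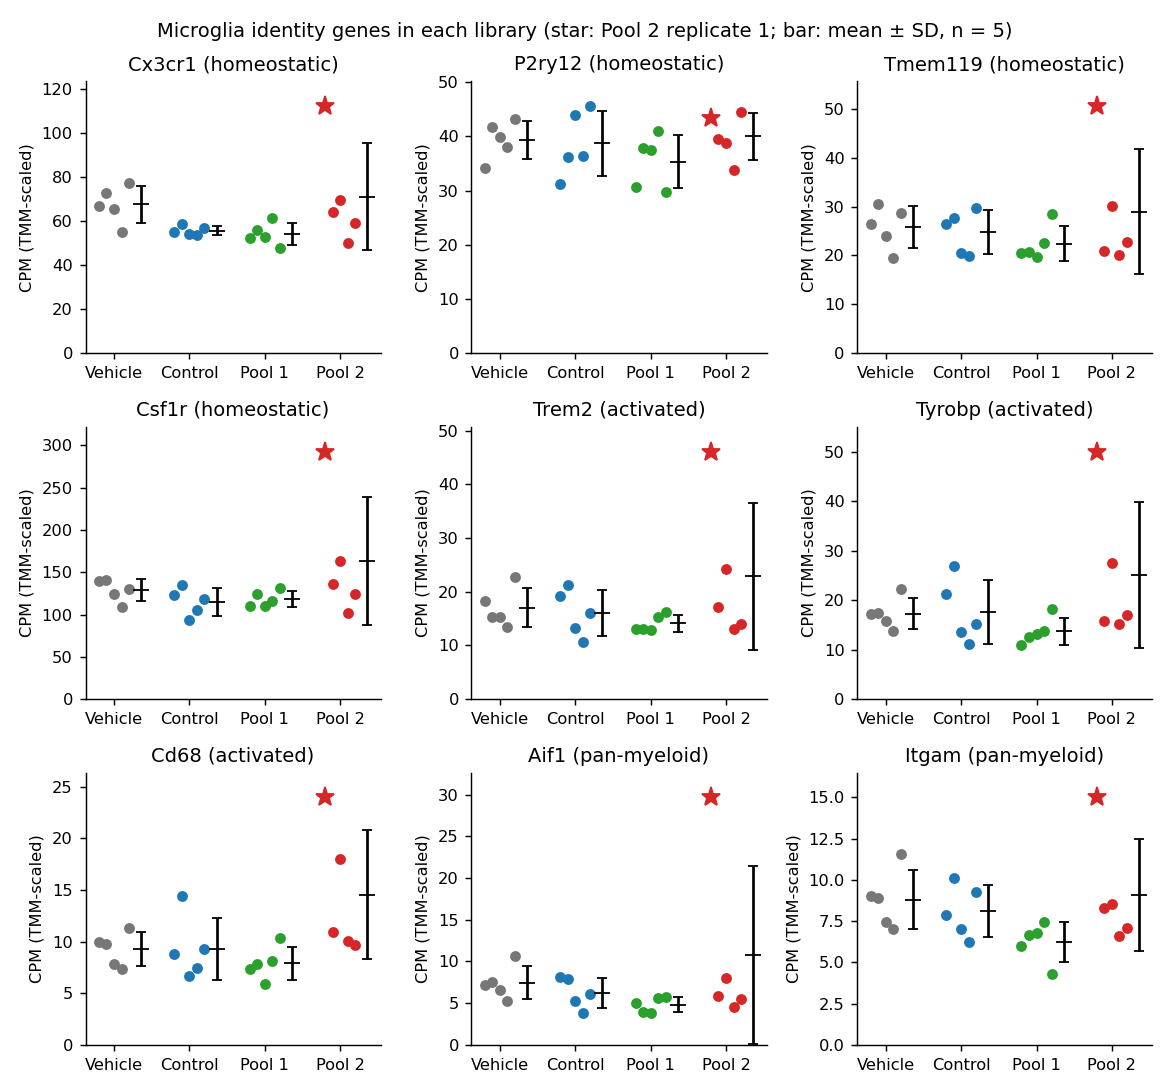
CPM (TMM-scaled, vertical axes from 0) of the 9 genes in each of the 20 libraries, with the mean ± SD of each group of 5 as a bar and Pool 2 replicate 1 as a star. The star lies above all other points for every gene except P2ry12, where it stands at 43.4 CPM within the range of 29.8 to 45.6 CPM of the other libraries.

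Compared with Control mice, Pool 2 mice had 3 of the 9 genes upregulated over all 20 libraries and none downregulated. These were the homeostatic receptors Csf1r (log2 fold change 0.51) and Cx3cr1 (0.35) and the lysosomal protein gene Cd68 (0.64), and the median of the 9 was 0.51 against 0.00294 over all genes. Without Pool 2 replicate 1, 0 of the 9 passed, the median was 0.09, and Aif1, Tmem119 and Itgam stood below 0. To be called up- or downregulated, a gene had to reach 0.3 in either direction on the log2 scale with an unadjusted p-value under 0.05 in edgeR's quasi-likelihood test. By this threshold 5.2% of the 25190 genes tested were higher and 1.01% lower in Pool 2 over all 20 libraries, and 3.31% were higher and 1.17% lower without Pool 2 replicate 1. At an adjusted p-value under 0.05, 0.0% of genes passed with edgeR in either set, although 1939 and 1303 genes had unadjusted values under 0.05, whereas DESeq2 passed 18 and 15 genes, none of them among the 9. A fit of only the Pool 2 and Control libraries also left 0 of the 9 past the threshold, with Cd68 the nearest at an unadjusted p-value of 0.0574.

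**Figure D2:**
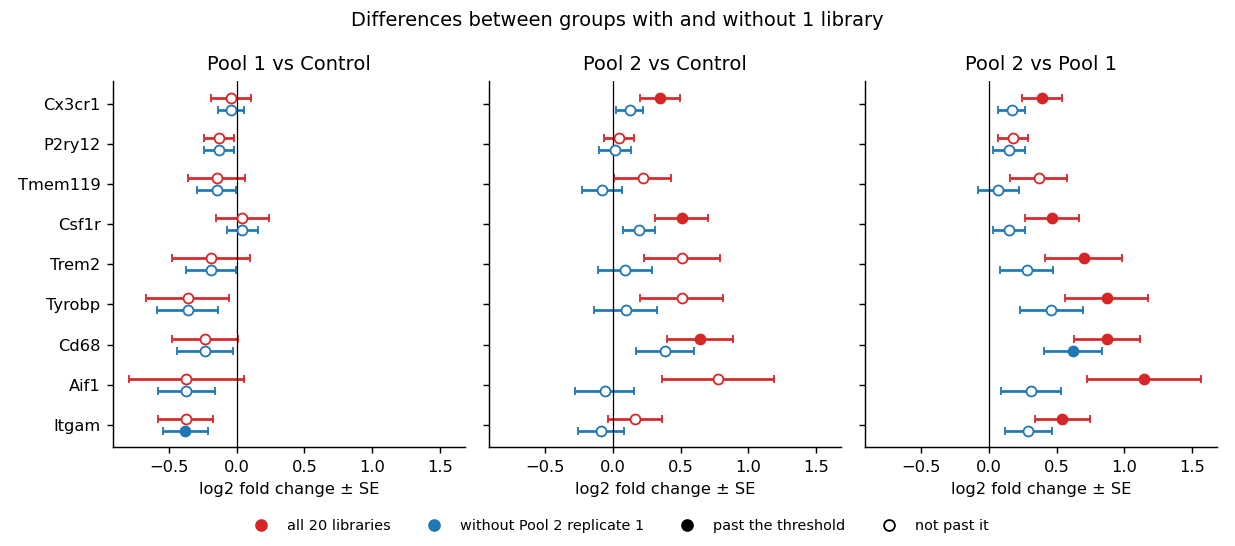
Log2 fold changes ± SE of the 9 genes (horizontal axes) for Pool 1 and Pool 2 against Control and for Pool 2 against Pool 1, over all 20 libraries (red) and without Pool 2 replicate 1 (blue), with filled points past the threshold. Against Control, 3 points of Pool 2 are filled with all libraries and 0 without that library, and against Pool 1 the filled points go from 7 to 1.

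Cx3cr1, the fractalkine receptor, lies on the minus strand of chromosome 9 (119901616 to 120069879, GRCm38, GENCODE M21), a span that also holds Gorasp1, Csrnp1 and Xirp1 on the same strand. In Control mice it was at 55.0, 58.9, 54.0, 53.8 and 57.1 CPM, with the lowest coefficient of variation (3.92%) of any gene in any group. In Pool 2 mice it was at 112, 64.2, 69.8, 50.0 and 59.0 CPM for replicates 1 to 5. Replicates 1, 2, 3 and 5 thus lay above the Control range (replicate 5 only just), and replicate 4 below it. Vehicle mice, at 66.7, 73.0, 65.7, 55.2 and 77.3 CPM, had 4 of 5 mice above the Control range as well, and Pool 1 mice ran from 47.8 to 61.4 CPM. The fold change of Pool 2 against Control was 0.35 on the log2 scale (SE 0.15, unadjusted p-value 0.0262, adjusted p-value 0.580), and it was 0.12 (SE 0.10, unadjusted p-value 0.233) without replicate 1. Against Vehicle, Control mice stood at −0.28 (SE 0.15, unadjusted p-value 0.0722), which is short of the threshold in both criteria. Without Pool 2 replicate 1 in the shared estimate of the spread the fold change was the same (SE 0.10, unadjusted p-value 0.00793, adjusted p-value 0.644), and it missed the threshold on its size alone. That value passed the threshold in the fit without Vehicle replicate 4, at −0.34.

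Csf1r, the receptor for the growth factors CSF1 and IL-34, lies on chromosome 18 (61100598 to 61132149, plus strand), opposite Hmgxb3. It was the most counted of the 9 genes, with 123, 135, 93.4, 105 and 118 CPM in Control mice and 293, 136, 163, 102 and 124 CPM in Pool 2 mice. Replicate 1 had more than any other library, replicate 3 lay above the Control range, replicate 2 reached its upper end, and replicates 4 and 5 were inside it. Vehicle mice had 109 to 141 CPM and Pool 1 mice 110 to 131 CPM. The log2 fold change against Control of 0.51 (SE 0.20, unadjusted p-value 0.0175, adjusted p-value 0.547) became 0.19 (SE 0.12, unadjusted p-value 0.120) without replicate 1.

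P2ry12, a purinergic receptor that in the brain is close to exclusive to microglia, lies on chromosome 3 (59216272 to 59262871, minus strand) opposite Med12l. Its values were 31.3, 36.3, 44.0, 36.4 and 45.6 CPM in Control mice, 30.6, 37.8, 37.5, 40.9 and 29.8 CPM in Pool 1 mice, and 43.4, 39.6, 38.7, 33.8 and 44.5 CPM in Pool 2 mice. The groups overlapped throughout, and replicate 1 of Pool 2 was not set apart. The log2 fold change of Pool 2 against Control was 0.05 (SE 0.11, unadjusted p-value 0.671), and 0.02 without replicate 1. Tmem119, a membrane protein used to tell microglia from other macrophages (chromosome 5, 113793729 to 113800516, minus strand), had 50.6, 21.0, 30.1, 20.1 and 22.8 CPM in Pool 2 mice against 19.8 to 29.8 CPM in Control mice. Apart from replicate 1, the Pool 2 mice kept to the Control range but for replicate 3, which was just above it. Its log2 fold change was 0.22 (SE 0.21, unadjusted p-value 0.310) over all libraries and −0.08 without replicate 1, a change of sign.

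Cd68, a scavenger receptor of late endosomes and lysosomes (chromosome 11, 69664213 to 69666153, minus strand), differed most among the activated genes. Control mice had 8.81, 14.4, 6.63, 7.39 and 9.24 CPM, and Pool 1 mice had 7.32, 7.85, 5.92, 8.10 and 10.3 CPM. Pool 2 mice had 23.9, 10.9, 18.0, 10.1 and 9.71 CPM. In Pool 2, replicates 1 and 3 were above all Control mice, and all 5 mice were above 4 of the 5 Control mice, the other being Control replicate 2. The log2 fold change against Control was 0.64 (SE 0.24, unadjusted p-value 0.0150, adjusted p-value 0.531), or 1.56-fold. Without Pool 2 replicate 1 it was 0.39 (SE 0.21, unadjusted p-value 0.0835), still positive but not past the threshold. These values rest on 122 to 524 counts of Cd68 per library.

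Trem2 (chromosome 17, 48346401 to 48354147, plus strand) and its adaptor Tyrobp (chromosome 7, 30413760 to 30417585, plus strand) moved alike from mouse to mouse. Trem2 was at 46.1, 17.2, 24.3, 13 and 14 CPM in Pool 2 mice and at 19.1, 21.3, 13.3, 10.7 and 16.0 CPM in Control mice. Tyrobp was at 50.0, 15.8, 27.5, 15.1 and 17.0 CPM in Pool 2 mice and at 21.2, 26.9, 13.6, 11.2 and 15.2 CPM in Control mice. For both genes, replicates 1 and 3 of Pool 2 were above the Control range and the other replicates within it. The log2 fold changes of Pool 2 against Control were 0.51 for Trem2 (SE 0.28, unadjusted p-value 0.0876) and 0.51 for Tyrobp (SE 0.30, unadjusted p-value 0.112), neither past the threshold. Without replicate 1 they were 0.09 and 0.10.

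Aif1, which encodes the actin-bundling protein IBA1 that is stained to see microglia (chromosome 17, 35170991 to 35176068, minus strand), depended most on a single mouse. Pool 2 replicate 1 had 29.7 CPM, and replicates 2 to 5 had 5.80, 8.0, 4.59 and 5.54 CPM, all inside the Control values of 8.09, 7.93, 5.29, 3.78 and 6.10 CPM. With all libraries its log2 fold change was 0.78 (SE 0.42, unadjusted p-value 0.0778), the largest of the 9 without passing the threshold, and without replicate 1 it was −0.06 (SE 0.22). Itgam, which encodes the CD11b chain of complement receptor CR3 (chromosome 7, 128062640 to 128118491, plus strand), had 15, 8.30, 8.54, 6.59 and 7.09 CPM in Pool 2 mice and 7.87, 10.1, 7.04, 6.24 and 9.29 CPM in Control mice. Here too only replicate 1 left the Control range, and the log2 fold change went from 0.16 (SE 0.20) to −0.09 (SE 0.17).

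Pool 1 mice showed no gene of the 9 past the threshold against Control mice over all 20 libraries, where 1.48% of all genes were higher, 1.99% lower and 0.0% past an adjusted p-value of 0.05 (edgeR; 1314 genes had unadjusted values under 0.05, and 7 genes past the adjusted one with DESeq2). The log2 fold changes were negative for 8 of the 9, from −0.04 for Cx3cr1 to −0.38 for Itgam, and 0.04 for Csf1r, and their median was −0.19 against −0.00541 over all genes. The activated genes stood at −0.36 (Tyrobp), −0.23 (Cd68) and −0.19 (Trem2), and the homeostatic ones between −0.15 and 0.04. Itgam had 5.99, 6.68, 6.79, 7.46 and 4.32 CPM in Pool 1 mice, and 3 of the 5 Control mice were above all of them. Its unadjusted p-value was 0.0748 over all 20 libraries (SE 0.20) and 0.0297 when Pool 2 replicate 1, a library of neither group, was left out of the shared estimate of the spread (SE 0.16, adjusted p-value 0.881). In that fit, 1 of the 9 genes was therefore lower, beside 1.53% of all genes higher, 2.2% lower and 0.0% past the adjusted threshold. Leaving out Control replicate 4 instead also took Itgam past the threshold, at −0.46.

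Between the pools, 7 of the 9 genes were higher in Pool 2 than in Pool 1 mice over all 20 libraries, where 5.66% of all genes were higher, 1.16% lower and 0.0% past an adjusted p-value of 0.05 with edgeR (2146 genes had unadjusted values under 0.05, and 115 past the adjusted one with DESeq2). This comparison shares its Pool 2 libraries with the one against Control. The log2 fold changes were 1.15 for Aif1, 0.87 for Cd68, 0.87 for Tyrobp, 0.70 for Trem2, 0.54 for Itgam, 0.47 for Csf1r and 0.39 for Cx3cr1, with unadjusted p-values from 0.00178 (Cd68) to 0.0277 (Csf1r) and adjusted p-values of 0.276 or more. P2ry12 (0.18) and Tmem119 (0.37, unadjusted p-value 0.0964) did not pass. In a fit of only the Pool 1 and Pool 2 libraries 3 of the 9 passed. Without Pool 2 replicate 1, Cd68 was the single gene left, at 0.62 (SE 0.21, unadjusted p-value 0.00864, adjusted p-value 0.673), or 1.54-fold, where 3.67% of all genes were higher, 1.06% lower and 0.0% past the adjusted threshold (1388 genes had unadjusted values under 0.05). Replicates 2 and 3 of Pool 2 were above all 5 Pool 1 mice in Cd68, while replicates 4 and 5 lay below Pool 1 replicate 5 and above the other 4.

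Control and Vehicle mice did not differ past the threshold in any of the 9 genes, where 1.7% of all genes were higher, 3.41% lower and 0.0% past an adjusted p-value of 0.05 in Control (1672 had unadjusted values under 0.05 with edgeR, and 0 past the adjusted one with DESeq2). Cx3cr1 was the nearest, as given above, and the other 8 log2 fold changes lay between −0.26 (Aif1) and 0.03 (Tyrobp). Vehicle replicate 5 had the highest Aif1 (10.7 CPM), Itgam (11.6 CPM) and Cx3cr1 (77.3 CPM) of the 19 libraries other than Pool 2 replicate 1, and in these 3 genes it was above Pool 2 replicates 2 to 5.

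The balance of activated to homeostatic genes was followed within each library as the mean log2 CPM of Trem2, Tyrobp and Cd68 minus that of Cx3cr1, P2ry12, Tmem119 and Csf1r. It was −1.27 in Pool 2 replicate 1, the highest of the 20 libraries and 0.77 above the median of the others. Both classes were raised in that library, the homeostatic mean to 6.53 and the activated mean to 5.25 log2 CPM, against 5.43 to 5.92 and 3.28 to 4.52 elsewhere. Control replicate 2 (−1.39) and Pool 2 replicate 3 (−1.40) came next. The group means were −1.97 ± 0.17 in Vehicle, −1.89 ± 0.35 in Control, −2.04 ± 0.18 in Pool 1 and −1.65 ± 0.30 in Pool 2 mice (SD, n = 5), or −1.75 ± 0.25 in Pool 2 without replicate 1 (n = 4), and the ranges of all groups overlapped. Counting Aif1 and Itgam as activated left the distance of Pool 2 replicate 1 at 0.77.

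**Figure D3:**
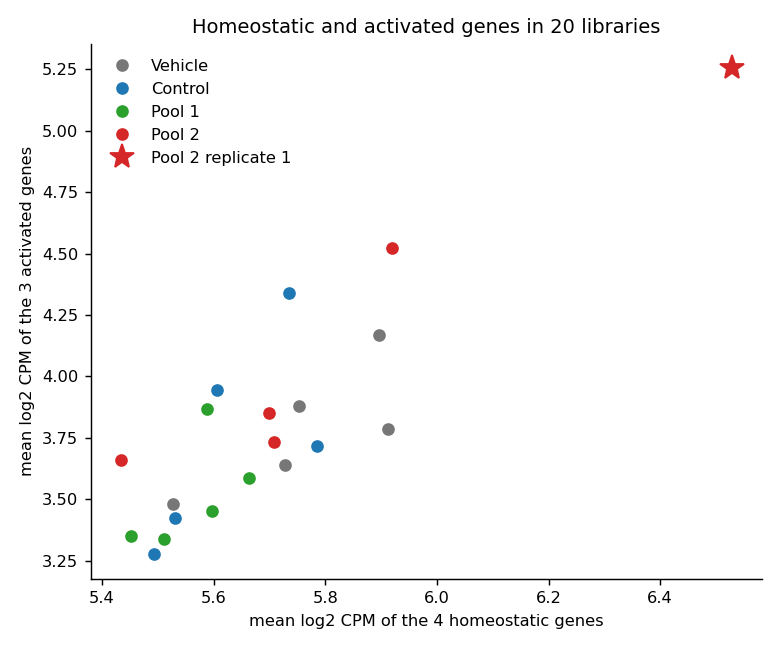
Mean log2 CPM of the 4 homeostatic genes (horizontal axis) against that of the 3 activated genes (vertical axis), 1 point per library coloured by group, with Pool 2 replicate 1 as a star. The star lies at 6.53 and 5.25, and the other 19 libraries lie between 5.43 and 5.92 and between 3.28 and 4.52 with the groups intermixed.

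Across the 19 libraries other than Pool 2 replicate 1, the genes rose and fell together, with P2ry12 apart from the rest. Spearman's rho was highest between Trem2 and Aif1 (0.94) and was 0.90 between Trem2 and Tyrobp. The median rho of a gene with the other 8 was between 0.62 (Cx3cr1) and 0.76 (Trem2), but 0.13 for P2ry12, which followed Cx3cr1 (0.57) and Itgam (0.48) and not Csf1r (0.04), Tyrobp (0.04) or Cd68 (−0.01). These values describe 19 libraries that share their tissue, depth and scaling, and carry no test.

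**Figure D4:**
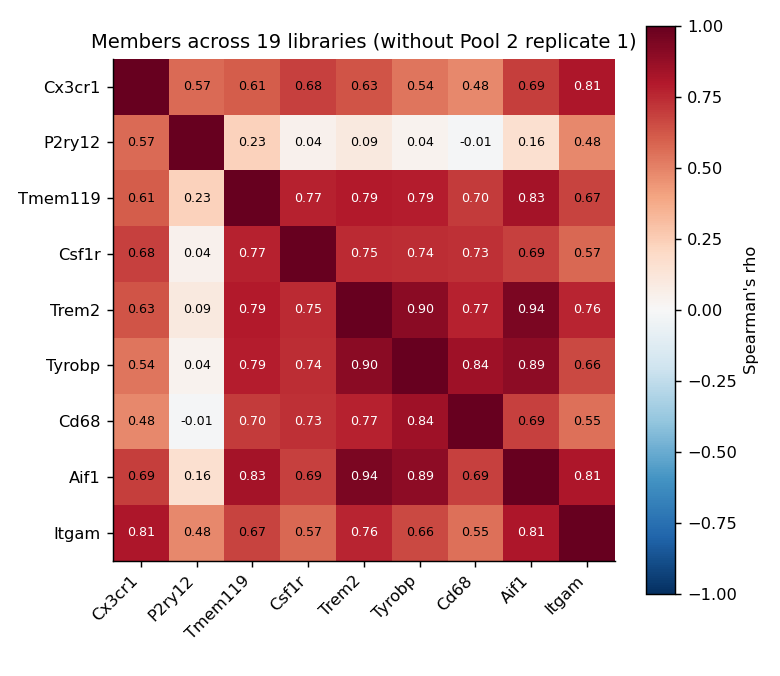
Spearman's rho between each pair of the 9 genes over 19 libraries, with red for positive and blue for negative values on a scale from −1 to 1. Most pairs are strongly positive, up to 0.94 for Trem2 and Aif1, and the row of P2ry12 is pale, from −0.01 to 0.57.

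Among the 8 genes whose pattern over the 19 libraries was most like that of the activated mean were C1qb (rho 0.96), C1qc (0.95), C1qa (0.95), Clic1 (0.93), Olfml3 (0.92), Vim (0.91) and Ifngr1 (0.90). The first 3 encode the chains of C1q, the initiator of the classical complement pathway, which in the brain comes mainly from microglia. Olfml3 is on the list of further homeostatic genes, and Vim on the astrocyte list. Most like the homeostatic mean were Rac2 (0.89), Ctss (0.88), Lag3 (0.88), Csf3r (0.88), C4b (0.87), Bin2 (0.87), Itgam (0.86) and Ly86 (0.86). All 16 were at their highest of the 20 libraries in Pool 2 replicate 1, from 1.86 times the median of the others for Ifngr1 to 5.34 times for C1qa, although that library was not used to choose them. Of the 16644 genes they were drawn from, 11.5% were highest there.

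Other genes known from microglia were counted in the comparison of Pool 2 with Control. Of all genes, 5.2% were higher there over all 20 libraries and 3.31% without Pool 2 replicate 1. Of 11 further homeostatic genes, 0 passed the threshold with or without Pool 2 replicate 1. Fcrls, one of the most abundant of them per length, had log2 fold changes of 0.15 with and 0.19 without replicate 1. Of 20 further activated genes, 8 were higher over all libraries and 2 without replicate 1. Cybb, the catalytic chain of the phagocyte NADPH oxidase, stood at 2.24 with and 0.70 without that library, and the receptor kinase Axl at 0.36 and 0.19. Spp1 (osteopontin, 1.30 and 1.36) and Gpnmb (0.74 and 0.44) were the 2 that passed in both fits. Among the 19 libraries other than Pool 2 replicate 1, Spp1 reached 23.1 CPM against a median of 3.57 CPM. Gpnmb reached 13.3 CPM against a median of 6.74 CPM. Of the 3 C1q genes, 3 were higher with all libraries, C1qa at 0.93, C1qb at 0.85 and C1qc at 0.77, and 0 without replicate 1, at 0.16, 0.17 and 0.16. In Pool 1 against Control over all 20 libraries, no gene of these lists was higher and 1 of the 20 activated ones was lower. Of all genes, 1.48% were higher and 1.99% lower there.

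Ligands and signalling partners of the 9 genes were read in the same way, beside the same 5.2% and 3.31% of all genes higher in Pool 2. Of 5 ligands, 1 was higher in Pool 2 over all libraries, the CSF1R ligand Csf1 at 0.34, and 0 without replicate 1, where it stood at 0.24. Apoe, the most abundant of them and a ligand of TREM2, had log2 fold changes of 0.26 and 0.04. Of 9 partners and regulators, 5 were higher over all libraries and 0 without replicate 1. They included the phosphatase gene Inpp5d (0.55 and 0.24), the transcription factor genes Irf8 (1.00 and 0.17) and Runx1 (0.81 and 0.39), and Itgb2, the chain that pairs with CD11b (0.85 and 0.24). In Pool 1 against Control, no gene of these lists was past the threshold in either direction over all 20 libraries.

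In Pool 2 replicate 1, most genes of these lists were high as well, with exceptions in 3 of the lists. All 9 partners were at their highest of the 20 libraries there, at 1.71 to 5.68 times the median of the others, as were the 3 C1q genes (4.16 to 5.34 times) and 18 of the 20 further activated genes, all but Lpl (0.764 times, 16th from the top) and Spp1 (2.29 times, 3rd). Of the 5 ligands 3 were highest there, and Il34 (0.840 times) and Cx3cl1 (0.979 times) were not. Cst7, Cybb, Cd52 and Itgax, the activated genes with the highest ratios and chosen after their values were seen, were at 45.1, 17.7, 14.5 and 12.3 times the median. Of the 11 further homeostatic genes 8 were highest there, at a median of 1.54 times, and 3 were not, Gpr34 (1.24 times), Slc2a5 (1.12 times) and Fcrls (1.03 times).

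Markers of other cells moved in that library too, and their part in the results was not tested. All 6 lymphocyte genes were at their highest there, with a summed level of 5.35 CPM against 0.0795 to 1.5 CPM in the other libraries, as were 4 of 5 monocyte genes (8.59 CPM against 0.0405 to 1.54) and 4 of 6 neutrophil genes (2.70 CPM against 0.172 to 1.52), and all but 1 of the genes in these 3 lists were at 0 in at least 1 library. Both Aif1 and Itgam are also carried by monocytes, and Itgam by neutrophils. Which cells carried the 9 genes in that library was not tested. Of 8 genes of border-associated macrophages 1 was highest there, and the sum of 27.1 CPM lay within the 25.2 to 34.2 CPM of the other Pool 2 mice, where Control mice had 17.6 to 23.1, Vehicle mice 19.5 to 26.6 and Pool 1 mice 17 to 26.4 CPM. Stab1 alone gave 18.1 CPM of that sum, and the 8 genes diverged in Pool 2 replicate 1. Ms4a7 stood at 6.39 times the median of the other libraries, Mrc1, Cbr2, F13a1 and Stab1 at 1.09 to 1.33 times. Cd163 (0.538 times), Lyve1 (0.658 times) and Pf4 (0.668 times) were below it. Of 6 astrocyte genes 5 were highest there (3079 CPM against 1311 to 1995), of 4 endothelial genes 4 (201 CPM against 72.4 to 169) and of 3 erythroid genes 3 (169 CPM against 32.2 to 89.6). The 5 general neuronal genes summed to 4401 CPM, below the 4917 to 6556 CPM of the other 19 libraries, and the 5 hippocampal neuron genes to 708 CPM, within the 505 to 909 CPM of the others. Of 5 proliferation genes 3 were highest there (9.37 CPM against 2.45 to 7.52), of 4 oligodendrocyte genes 0 (5319 CPM against 2076 to 6658) and of 3 choroid plexus genes 0, their sum of 86.4 CPM being the lowest of the 20 libraries.

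**Figure D5:**
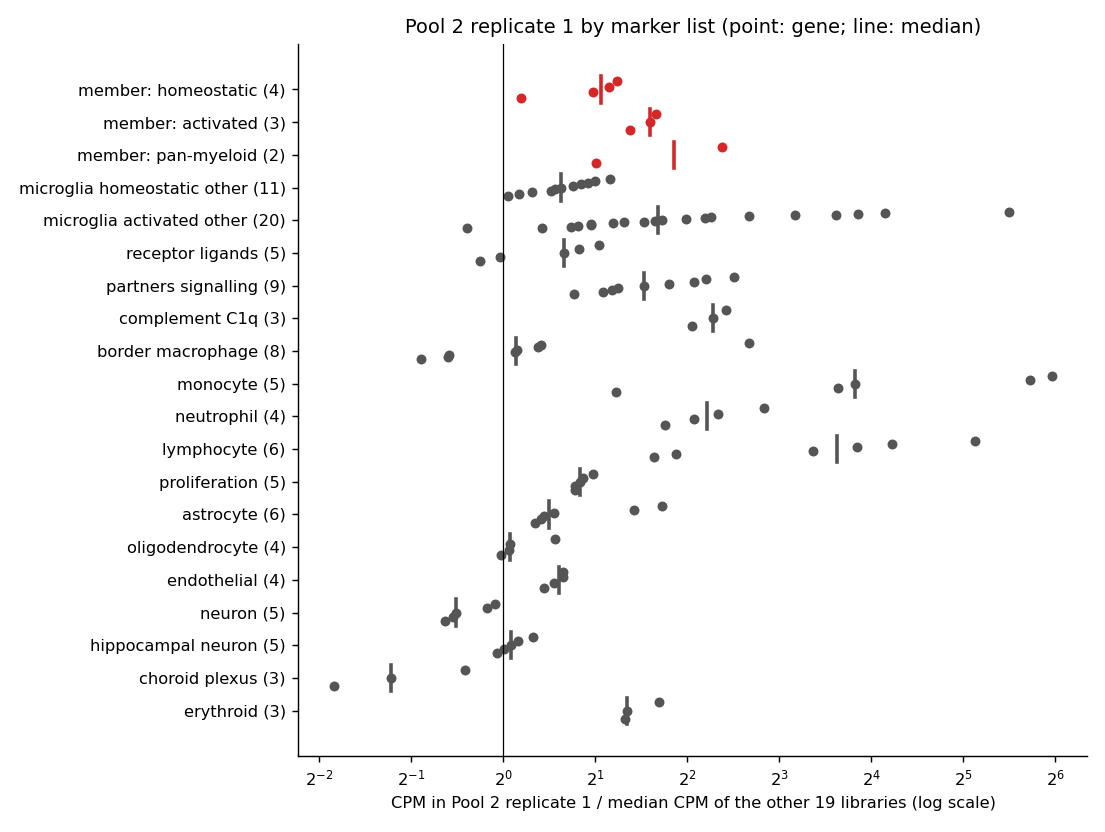
Ratio of the CPM in Pool 2 replicate 1 to the median CPM of the other 19 libraries (horizontal log axis), 1 point per gene and a line at the median, by list with the number of genes plotted; red rows are the 9 genes, and 2 neutrophil genes with a median of 0 are left out. P2ry12 lies near 1 at 1.14 and Aif1 is the highest of the 9 at 5.21, while the 5 general neuronal genes lie to the left of 1 and the highest points are in the monocyte, further activated and lymphocyte rows.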

How the data were processed

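RNA was sequenced from the hippocampal tissue of 20 mice. The authors made stranded polyadenylated libraries (reads of 50 nt, mean RIN 8.5), aligned the reads to GRCm38 (mm10) with STAR, counted reads per gene with GENCODE annotation and deposited raw counts, without normalization, for genes with a total of at least 10. Which strand setting gave the counts is not given in the sources used here, so reads of P2ry12 and Med12l, which overlap on opposite strands, and of Csf1r and Hmgxb3 may not be separable. The same limit holds for Cx3cr1, whose span is overlapped on the opposite strand by several genes, among them Wdr48 and Ttc21a.

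Libraries were grouped by their labels. TMM scaling and the quasi-likelihood test of edgeR 4.0.16 (glmQLFit with robust estimation, then glmQLFTest; R 4.3.3) were applied to all 25190 genes and 4 groups at once, with Benjamini-Hochberg adjustment. SE is the log2 fold change divided by the root of the F statistic. DESeq2 1.42.0 was an alternative. Log2 CPM used a prior count of 2, and exon lengths and positions came from GENCODE M21. Replicate numbers did not pair the libraries. Nothing says whether the mice of a group were infused together, so p-values measure the spread between these mice. Pairs of replicates differed by 8.23 to 66.8 times the noise of sampling (chi-square over its degrees of freedom). On simulated counts for Pool 2 against Control, 97.5% of 200 genes changed by 1 on the log2 scale passed the threshold. Of unchanged genes, 3.56% passed. The microglia genes followed here changed by only 0.05 to 0.78 in that comparison over all libraries. The recovery of changes of that size was not tested.

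The 9 genes, the other lists and the tests were chosen with earlier results of these data known. Named beside the 9 were up to 4 genes of each other list, those past the threshold in Pool 1 or Pool 2 against Control with the smallest p-values or, with fewer than 2 of these, the most abundant per length, and the 8 genes most correlated with each class mean. Some genes chosen by this rule are not reported here.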

Additional observations from a re-analysis of the deposited data

Results flagged for a closer look

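Of 40 sets of 5 values examined (the 9 genes and the balance of activated to homeostatic genes in each of 4 groups), 3 held a mouse far from the other 4 by Dixon's criterion, which by chance marks about 1 set in 20. Aif1 stood at 29.7 CPM in Pool 2 replicate 1, against 4.59 to 8.0 CPM in the other Pool 2 mice. Itgam stood at 15 CPM in the same mouse, against 6.59 to 8.54 CPM. In Pool 1 replicate 5 the activated minus homeostatic mean was −1.72 on the log2 scale, where the other 4 ran from −2.17 to −2.08, and the same mouse had the lowest Itgam (4.32 CPM), Cx3cr1 (47.8 CPM) and P2ry12 (29.8 CPM) of the 20 libraries and the highest Csf1r, Cd68, Trem2, Tyrobp and Tmem119 of Pool 1.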

How the results depend on the processing

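The threshold is an unadjusted one, 5 mice a group limit its precision, and counting intervals would cover counting error only. Of the 9 genes in Pool 2 against Control, 0 passed without Pool 2 replicate 1, 6 without Pool 2 replicate 4 and 5 without Pool 2 replicate 5, so leaving out 1 library gave 0 to 6. The range was 0 to 1 in Pool 1 against Control (1 without Control replicate 4 or Pool 2 replicate 1), 1 to 8 in Pool 2 against Pool 1 (1 without Pool 2 replicate 1) and 0 to 1 in Control against Vehicle (1 without Vehicle replicate 4). With only the 2 groups compared the counts were 1 in Pool 1 and 0 in Pool 2 against Control and 3 between the pools. Without both Vehicle replicate 4 and Pool 2 replicate 1 they were 1, 0 and 1, and 1 in Control against Vehicle. With DESeq2 and Pool 2 replicate 1 left out, chosen after seeing the data, they were 1, 0 and 1. The cause was not tested. With DESeq2, its size factors, the default spread or either filter on low counts, no count of the 9 changed.

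The replicate number as a block, where 30 pairs of same-numbered libraries had correlations of −0.32 to 0.28 and 1 of 20 libraries correlated best with its own number, gave 0 of 9 genes in Pool 1 and 3 of 9 in Pool 2 against Control, 7 between the pools and 0 in Control against Vehicle, the same counts as without it. Over all genes the count past the threshold fell at a mean normalized count of at least 10, which kept 16644 genes. It fell from 876 to 402 in Pool 1 and from 1566 to 969 in Pool 2. Between the pools it fell from 1718 to 1133, and in Control against Vehicle from 1285 to 795. With filterByExpr, which kept 17293 genes, it fell to 426, 960 and 821 in the comparisons with Control and Vehicle. These counts are over fewer genes, and whether that accounts for the whole fall was not tested. With DESeq2 and Pool 2 replicate 1 left out, the count past the threshold was 881 in Pool 2 against Control and 980 between the pools.

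Signs turned in Pool 2 against Control for Tmem119 (−0.0787), Aif1 (−0.0600) and Itgam (−0.0881) without both libraries, and with DESeq2 and Pool 2 replicate 1 left out (−0.0873, −0.0699 and −0.0970). In Control against Vehicle, Tyrobp (−0.0417) and Cd68 (−0.0638) turned without both libraries. Leaving out 1 library at a time gave ranges across 0 for Csf1r in Pool 1 against Control (−0.0234 to 0.109), for P2ry12 (−0.0203 to 0.113), Tmem119 (−0.0787 to 0.326), Aif1 (−0.0600 to 0.969) and Itgam (−0.0881 to 0.260) in Pool 2 against Control, and in Control against Vehicle for P2ry12 (−0.0904 to 0.0428), Tmem119 (−0.145 to 0.0178), Trem2 (−0.202 to 0.0469), Tyrobp (−0.177 to 0.162), Cd68 (−0.205 to 0.107) and Itgam (−0.207 to 0.00487).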

Other observations

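Genes of border-associated macrophages, which live in the meninges and around vessels, were above 0 in Pool 2 against Control in 8 of 8, as were the 9 microglia genes, over all 20 libraries. In Pool 2 against Control, 4 of 8 were higher over all 20 libraries and 5 of 8 without Pool 2 replicate 1, when none of the 9 microglia genes was. Of all genes, 5.2% and 3.31% were higher in these 2 fits. The mannose receptor Mrc1 had a log2 fold change of 0.78 with and 0.85 without that library (SE 0.24 and 0.25, unadjusted p-values 0.00401 and 0.00272, adjusted p-values 0.479 and 0.658 from edgeR's quasi-likelihood test). F13a1 (0.82 and 0.95), Cbr2 (0.88 and 0.92) and Stab1 (0.38 and 0.40) passed in both fits too, and Cd163, named after its values were seen, without that library only (1.06). Between the pools, 5 of the 8 were higher in Pool 2 with and 6 without Pool 2 replicate 1, beside 5.66% and 3.67% of all genes. In Pool 1 against Control 0 of the 8 were higher. Apart from Stab1, these genes were at low levels, with a mean of 0.396 FPKM for Mrc1, and none passed an adjusted p-value of 0.05. The difference between the lists was not tested.

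Among monocyte and lymphocyte genes, which were near the floor of 3 counts, Ccr2 (2.49 with and 1.52 without Pool 2 replicate 1) and Nkg7 (4.53 and 3.38) were past the threshold in Pool 2 in both fits, and Plac8 (2.53 and 0.39), Ly6c2 (3.14 and −1.11), Cd3d (3.20 and 1.58) and Cd3e (2.63 and 1.29) only with that library. These fitted values of genes with zeros depend on the prior count. In Pool 1 against Control, Nkg7 stood at 2.05 and Ccr2 at 0.33 in both fits, while Plac8 (−1.64) and Ly6c2 (−0.83) stood below 0. Without Pool 2 replicate 1, 1 of 5 monocyte and 1 of 6 lymphocyte genes were higher in Pool 1, beside 1.53% of all genes. In Control against Vehicle over all 20 libraries, the median was −0.84 for monocyte and −1.14 for lymphocyte genes. There 2 of 5 monocyte and 0 of 6 lymphocyte genes were lower, beside 3.41% of all genes. The comparison of Pool 2 with Control shares these Control libraries. The neutrophil genes S100a8 (0.82 and 0.06) and S100a9 (0.74 and 0.33) were not past the threshold in Pool 2. Of the astrocyte genes, Gfap (0.49 and 0.21) and Vim (0.70 and 0.32) passed with that library only, and the endothelial gene Pecam1 in both fits (0.51 and 0.46). No gene of the proliferation, oligodendrocyte, neuron, hippocampal neuron, choroid plexus or erythroid lists was past the threshold in Pool 2 against Control in either fit, for example Top2a (0.02 and −0.15), Mbp (0.06 and −0.08), Snap25 (−0.22 and −0.14), Wfs1 (−0.12 and −0.25), Ttr (−0.73 and −0.46) and Hbb-bs (0.41 and −0.04).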
